A study of Mus musculus with 231 samples.

Results

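The last peripheral blood library of each Cbfb-MYH11 (CM) mouse was compared with the library of the same mouse from month 0, before the fusion gene was switched on. All 7 CM mice of the training cohort had both libraries, so that 14 of the 231 libraries of the series entered the comparison. The study's own plot of this time course holds fewer CM mice, and which were left out is not stated. Mature microRNAs (miRNAs) were counted by small RNA sequencing of peripheral blood mononuclear cells (PBMC). The study followed C57BL/6 mice from the healthy state until they were moribund with acute myeloid leukemia (AML) or until month 10, and the labels do not state the disease state of any single library.

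CM mice carried a conditional Cbfb-MYH11 knock-in allele (Cbfb56M/+) with Mx1-Cre, which is induced by interferon, and were 6-8 weeks old when 7 doses of poly(I:C) were given to switch the allele on. Mx1-Cre also acts outside the blood, and month 0 precedes the injections, so that age, poly(I:C) and CM changed together between both libraries of a mouse. Ctrl littermates, which the labels describe as without the transgene, received the same injections, and their change from month 0 to month 6 is given beside that of the CM mice. What the genotype labels stand for (HW, CW or WT in Ctrl and CHW in CM mice) is not stated. By the labels, CM mice 3334, 3368 and 3370 and all Ctrl mice but 3349 and 3350 were male, and the other mice were female. Sampling of the CM mice ended at month 4 for 3338 and 3357, at month 6 for 3341, at month 7 for 3336, at month 9 for 3370 and at month 10 for 3368. For mouse 3334 it ended with a library titled T6p5, read here as month 6.5, whose time point label says T6.

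A miRNA is cut from a hairpin precursor that can release a mature strand from either arm (5p and 3p), and it lowers the output of messenger RNAs that pair with its seed, bases 2 to 8. miRNAs with the same seed can act on the same messenger RNAs, and neighbouring hairpins are often cut from a shared transcript. In blood, several miRNAs mark a lineage or a stage: miR-126 is high in stem and progenitor cells, miR-150 in mature lymphocytes, miR-223 in granulocytes and monocytes, and miR-451a in red cells.

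The sequences of the miRNAs on which the comparison turns are given first, from RefSeq on the GRCm38.p6 assembly, with the seed in capitals. Of the 24 miRNAs described individually, 20 had a sequence there. The first set rose in CM mice. The 3p arms of miR-132 and miR-212 share the seed AACAGUC, and their hairpins lie in 1 cluster on chromosome 11 (chr11:75173388-75173747, plus strand).
miR-126a-3p: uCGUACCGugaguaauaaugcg
miR-31-5p: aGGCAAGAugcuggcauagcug
miR-541-5p: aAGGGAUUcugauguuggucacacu
miR-132-3p: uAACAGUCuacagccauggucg
miR-212-3p: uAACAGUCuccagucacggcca
miR-340-3p: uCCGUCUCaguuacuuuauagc
The second set fell or belongs to a seed family with members that fell. It holds the miR-181 family, all with the seed ACAUUCA, and miR-130a, miR-130b and miR-301a, all with the seed AGUGCAA.
miR-181a-5p: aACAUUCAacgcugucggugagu
miR-181b-5p: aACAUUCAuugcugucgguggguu
miR-181c-5p: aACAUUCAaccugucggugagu
miR-181d-5p: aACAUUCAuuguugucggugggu
miR-130a-3p: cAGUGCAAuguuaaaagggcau
miR-130b-3p: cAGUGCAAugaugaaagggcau
miR-301a-3p: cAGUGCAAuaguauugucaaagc
miR-574-3p: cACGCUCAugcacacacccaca
miR-139-5p: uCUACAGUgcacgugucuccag

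Total counts were 2981522 to 5644830 in the month 0 libraries (median 4125873) and 2848809 to 5648237 in the last libraries (median 3753964). On the log2 scale the last libraries were lower by 0.18 on average and higher in 2 of 7 mice, a difference within the spread between mice (exact sign-flip permutation test, two-sided, p = 0.359, the smallest possible p being 0.0156). Some libraries stood apart before any comparison was made. The month 0 library of mouse 3334 held 39421 CPM (counts as parts of a fixed library total, with TMM scaling between libraries) of miR-223-3p, against 5267 to 10865 CPM in the month 0 libraries of the other 6 CM mice. Titles carry a serial number that runs on within a mouse. In Ctrl mouse 3335 it was 1 to 6 up to month 5, and the numbers 7 and 8 then stood in the titles of mouse 3334, while those that continue the earlier run of mouse 3334 stood in the titles of mouse 3335. Which of these labels holds cannot be told from the files, and results are therefore also given without these mice. The changes of mouse 3368 were only weakly correlated with those of the other mice. Pearson's r between its changes and the mean change of the other 6 mice was 0.107 over the 75.1% of tested miRNAs at 10 CPM or more, whereas r was 0.60 to 0.80 for each of the other mice, over miRNAs that are not independent and come from the same libraries. A number that follows G in the titles is not explained by the labels. Nor is a number at the end of the titles, which runs on within a G number. In the month 6 titles of mice 3334 and 3335 it belongs to the run of another G number, so these G numbers are in doubt too. Only mouse 3336 had the same G number in both libraries, so that in the other 6 mice a difference between G numbers and a change with time cannot be told apart.

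For 446 miRNAs the levels were compared by the quasi-likelihood F test of edgeR, with the mouse as a block. At a Benjamini-Hochberg (BH) adjusted p under 0.05, 147 miRNAs changed (33% of those tested), of which 72 (16.1%) rose and 75 (16.8%) fell. Without mouse 3334 the test called 99 miRNAs, 40 higher and 59 lower, and without mouse 3368 it called 43.2% of 447, of which 88 were higher. Fewer were called without mouse 3336 (66), 3338 (77), 3341 (94) or 3357 (94). In each of the 7 fits with a mouse left out, at most 1 of the 147 miRNAs changed its direction. With the month 6 library of mouse 3334 in place of T6p5, 63 were called, 22 higher and 41 lower. With the G number as a term and no block, 0 of 446 were called by edgeR (22.6% had an unadjusted p under 0.05), and 1 of the 147 changed its direction. Only G numbers 3 (1 month 0 and 3 last libraries) and 6 (2 and 2) held both times. The change in that fit rests on those libraries alone, so the lack of calls cannot be read as a lack of change. The median log2 change over all tested miRNAs was -0.13 with TMM scaling and -0.33 with raw library sizes, where 53 miRNAs were called higher and 87 lower. For 32 miRNAs (7.17%) the range of the last libraries did not overlap that of month 0, 11 (2.47%) higher and 21 (4.71%) lower, and 28.5% of the tested miRNAs moved the same way in all 7 mice.

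Both arms of miR-126, which sustains stem cell quiescence in normal marrow, rose more than 11-fold. The level of miR-126a-3p was 107.8 to 186 CPM at month 0 (median 124.4) and 218 to 4584 CPM in the last libraries (median 1412). Every last library exceeded every month 0 library. The log2 fold change was 3.52 (SE 0.62, n = 7 mice; edgeR's quasi-likelihood test, BH-adjusted p = 0.00665), an 11.5-fold increase. miR-126a-5p was 45.6 to 95.5 CPM at month 0 (median 73.6) and 105.9 to 2960 CPM in the last libraries (median 893), with a log2 fold change of 3.56 (SE 0.62, BH-adjusted p = 0.00665 in the same edgeR test). Its groups did not overlap either. By mouse, miR-126a-3p was 4584 CPM in mouse 3341, 2552 in mouse 3334, 1861 in mouse 3338, 1412 in mouse 3336 and 1377 CPM in mouse 3357, all above 10 times their own month 0 level. It was 464 CPM in mouse 3370, up from 124.4, and 218 CPM in mouse 3368, up from 186. Mature miR-126a-3p maps to chr2:26591402-26591423 on the plus strand (GRCm38.p6). In the GENCODE annotation of the NCBIM37 assembly the hairpin lies within Egfl7, a gene of endothelial cells. It is in an intron of 10 of the 11 Egfl7 transcripts that span it and in an exon of 1. It also lies in an intron of 1 transcript of Gm20532, on the same strand. The study reports that Egfl7 too rose over time in the blood of CM mice.

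miR-31-5p reached the highest level of the 12 miRNAs with the largest increases. Its level was 243 to 539.4 CPM at month 0 (median 277) and 361 to 14846 CPM in the last libraries (median 8320), a log2 fold change of 4.15 (SE 0.72; edgeR's quasi-likelihood test, BH-adjusted p = 0.00665). The last libraries of 6 mice, at 2034 CPM or more, exceeded every month 0 library, and that of mouse 3368, at 361 CPM, did not. The other arm, miR-31-3p, went from a median of 4.53 CPM to 39.1 CPM and was higher in 6 of 7 mice (log2 fold change 2.66, SE 0.82; edgeR BH-adjusted p = 0.0355). Its adjusted p was 0.055 to 0.096 without mouse 3334, 3336, 3338, 3341 or 3357 in the same edgeR test. Both arms come from 1 hairpin on the minus strand of chromosome 4, which lay in no annotated host gene.

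The miR-132 and miR-212 hairpins lie next to each other, and their transcription is known to be switched on by CREB signalling. Of the 4 mature strands tested 3 rose, and the median log2 change was 2.93. miR-132-3p was 22.7 to 34.6 CPM at month 0 (median 28.4) and 30.3 to 929 CPM in the last libraries (median 104.7), and rose 5.56-fold (log2 2.47, SE 0.56; edgeR's quasi-likelihood test, BH-adjusted p = 0.0128). miR-132-5p rose from a median of 3.86 to 21.9 CPM (log2 3.39, SE 0.59) and miR-212-5p from 2.76 to 20.6 CPM (log2 3.96, SE 0.87), each in 7 of 7 mice. miR-212-3p had a log2 change of 2.25 and did not pass the test (edgeR BH-adjusted p = 0.0672). The highest level of all 4 strands was in mouse 3341. With the month 6 library of mouse 3334 in place of T6p5, 2 of the 4 strands were called.

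miR-541-5p had the largest fold change of the 24 miRNAs. It is encoded in the Dlk1-Dio3 domain of chromosome 12, an imprinted region in which only the maternal chromosome makes the miRNAs. It was near the limit of detection at month 0, with 1 to 7 counts per library (0.193 to 1.55 CPM), and was 4.13 to 175 CPM in the last libraries (median 35.6). The groups did not overlap, and the log2 fold change was 5.51 (SE 0.93; edgeR's quasi-likelihood test, BH-adjusted p = 0.00665). It passed the filter on low counts only through the last libraries, in which it was high. The test and the lack of overlap are therefore not independent of the filter, and the fold change rests on few counts at month 0. Of the miRNAs of this domain in the table, 79 were above 0 in at least 1 of the 14 libraries, 27 were at 0 in all of them, and 1 passed the filter on low counts in this comparison. Their summed level was 7.14 to 15.2 CPM at month 0 (median 9.06) and 16.2 to 534 CPM in the last libraries (median 132.95), so that every last library lay above every month 0 library.

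The remaining 4 of the 12 increases were those of miR-340-3p, miR-185-3p, miR-2137 and miR-499-5p. miR-340-3p, from an intron of Rnf130, rose in 7 of 7 mice from a median of 81.5 CPM (57.9 to 193.7) to 577 CPM (152 to 1536). miR-185-3p rose from a median of 13.5 CPM (9.34 to 18.3) to 53.3 CPM (27.9 to 92.6), without overlap. Their log2 fold changes were 2.60 (SE 0.43) and 2.18 (SE 0.39), both at a BH-adjusted p of 0.00665 in edgeR's quasi-likelihood test. miR-2137 was higher in 7 of 7 mice, with medians of 28.5 and 174 CPM (log2 3.13, SE 0.70; edgeR BH-adjusted p = 0.0124). miR-499-5p, which lies in an intron of the muscle myosin gene Myh7b, was higher in 6 of 7 mice, with medians of 7.14 and 27.9 CPM (log2 2.19, SE 0.58; edgeR BH-adjusted p = 0.0217, but 0.0552 without mouse 3336 and 0.0626 without mouse 3338).

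**Figure D1:**
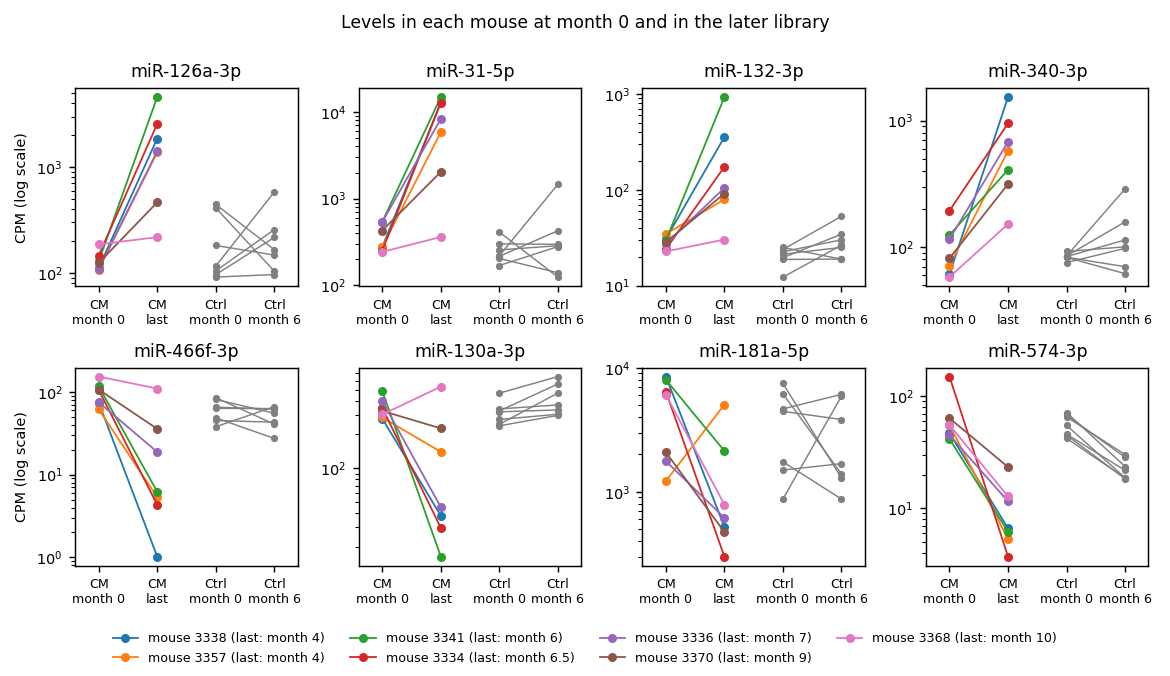
Levels of 8 miRNAs in CPM on log axes, with a line for each of the 7 CM mice from month 0 to its last library (coloured) and for each of the 7 Ctrl mice from month 0 to month 6 (grey). The lines of miR-126a-3p and miR-31-5p climb steeply in 6 CM mice and are almost flat in mouse 3368, while those of miR-574-3p descend in all 14 mice.

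Among the miRNAs that fell, 3 of the 12 with the largest decreases bear names of a large repeated cluster of hairpins within the imprinted gene Sfmbt2. miR-466f-3p was 61.5 to 153 CPM at month 0 (median 105.3) and 1.02 to 110 CPM in the last libraries (median 6.19). It was lower in 7 of 7 mice, and 6 last libraries lay below every month 0 library (log2 -2.995, SE 0.66; edgeR's quasi-likelihood test, BH-adjusted p = 0.0112). miR-466h-3p went from a median of 36.6 to 2.32 CPM and miR-297b-3p from 53.7 to 9.81 CPM, with log2 changes of -2.87 (SE 0.65) and -2.45 (SE 0.45). The list for this cluster was made by name and not by position, so it can hold hairpins from elsewhere. Of its 76 miRNAs, 30 passed the filter on low counts, 17 fell, 0 rose, and the median log2 change was -1.32. All 30 had a negative change in the edgeR fit, from -3.02 to -0.16. Their summed level, with the members that were not tested, was 1217 to 1893 CPM at month 0 (median 1742) and 200 to 1487 CPM in the last libraries (median 676). Without mouse 3334, 3336, 3338 or 3341, 11 of 30 fell in each case, with the month 6 library of mouse 3334 6 of 30, and without mouse 3368, 21 of 27. Many of these hairpins are near copies of each other, so that the split of reads among them is uncertain.

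Further miRNAs fell in all mice. miR-574-3p was 41.6 to 150 CPM at month 0 (median 55.3) and 3.71 to 23.4 CPM in the last libraries (median 6.64), a 6.15-fold decrease (log2 -2.62, SE 0.44; edgeR's quasi-likelihood test, BH-adjusted p = 0.00665). miR-1249-3p fell 4.68-fold, from 110.7 to 174 CPM (median 134.6) down to 12.3 to 49.2 CPM (median 28.2). For both, every last library lay below every month 0 library. miR-139-5p, a miRNA with known growth-restraining targets that lies in an intron of Pde2a, was 1064 to 3886 CPM at month 0 (median 1363) and 193.04 to 772 CPM in the last libraries (median 380), and fell 4.03-fold. miR-350-3p, from an intron of Cep170, was 672.6 to 1733 CPM at month 0 (median 969) and 131.5 to 587 CPM in the last libraries (median 199.4), and fell 3.82-fold. Neither overlapped between the groups, and each had a BH-adjusted p of at most 0.00666 in the edgeR test.

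The miR-181 family is known for its high level in developing lymphocytes and in some early progenitors. Of its 8 tested strands, 6 fell, 0 rose, and the median log2 change was -1.41. miR-181a-5p, the most abundant, was 1221 to 8499 CPM at month 0 (median 6067) and 300.4 to 5046 CPM in the last libraries (median 617). It was lower in 6 of 7 mice, whereas in mouse 3357 it was higher, and the groups overlapped (log2 -2.18, SE 0.69; edgeR's quasi-likelihood test, BH-adjusted p = 0.0386). miR-181c-5p fell from a median of 618 to 151 CPM (log2 -1.39, SE 0.38). miR-181a-2-3p, of low abundance, fell from a median of 18.1 to 4.09 CPM without overlap of the groups. With mouse 3334, 3336 or 3341 left out, or with the month 6 library of mouse 3334, 2 of the 8 strands were called, without mouse 3338 or 3370, 3 were, and without mouse 3357, 4 were. The adjusted p of miR-181a-5p was 0.0565 to 0.0993 without any 1 mouse other than 3357.

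miR-130a-3p, which is found in progenitors and in the megakaryocyte lineage, was 277 to 485.3 CPM at month 0 (median 323.3) and 16.5 to 530 CPM in the last libraries (median 45.3). It was 140.4 CPM or less in 5 of the last libraries and above all month 0 libraries in mouse 3368 (log2 -2.03, SE 0.67; edgeR's quasi-likelihood test, BH-adjusted p = 0.0423, and 0.0635 to 0.105 without mouse 3334, 3336, 3338, 3341 or 3357). miR-130b-3p, with the same seed, fell in 7 of 7 mice from 172 to 209 CPM (median 192.01) to 39.3 to 148 CPM (median 97.1), without overlap (log2 -0.97, SE 0.27; edgeR BH-adjusted p = 0.0265). miR-301a-3p, the third of that seed, had medians of 135.3 and 109.7 CPM and did not pass the test (log2 -0.12, SE 0.24; edgeR BH-adjusted p = 0.708).

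The remaining decreases among the 12 were of miRNAs at low or scattered levels. miR-204-5p, from an intron of Trpm3, was 2.84 to 108.2 CPM at month 0 and 0 to 8.66 CPM in the last libraries, 3 of which held 0 counts, which allows up to 3 counts each (log2 -3.30, SE 1.04; edgeR's quasi-likelihood test, BH-adjusted p = 0.0385, and 0.0589 to 0.0879 without mouse 3336, 3338 or 3341). miR-135a-5p was 2.75 to 64.3 CPM at month 0 and 0.255 to 29.5 CPM in the last libraries (log2 -2.87, SE 0.57; edgeR BH-adjusted p = 0.00776). Both were lower in 7 of 7 mice with overlapping groups. miR-135a-5p is made from 2 hairpins, on chromosomes 9 and 10, which its reads cannot tell apart.

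**Figure D2:**
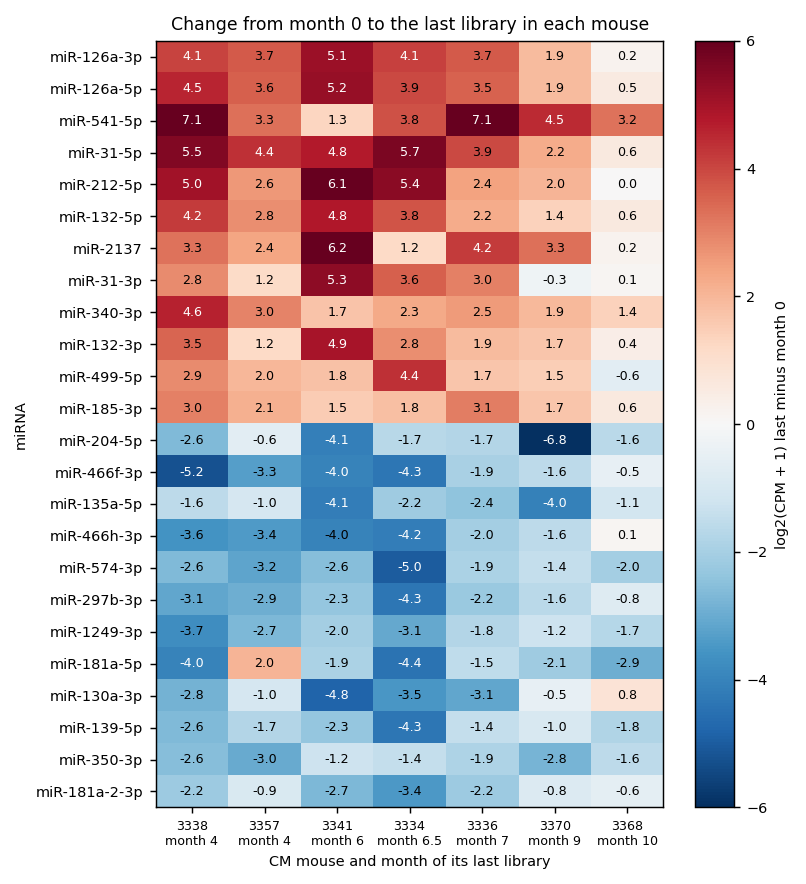
Change of the 24 miRNAs from month 0 to the last library, as the difference of log2(CPM + 1), in each CM mouse, ordered from left to right by the month of the last library (red higher, blue lower). The columns of mice 3338, 3341 and 3334 are the deepest in colour, and that of mouse 3368 is the palest.

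The size of the change differed among the mice. The median change of the 12 miRNAs with the largest increases, in log2(CPM + 1), was 4.88 in mouse 3341, 4.12 in mouse 3338, 3.80 in mouse 3334, 3.04 in mouse 3336 and 2.69 in mouse 3357. It was 1.90 in mouse 3370 and 0.46 in mouse 3368, the mice with the latest last libraries. Both were male, as was mouse 3334, and the part of sex was not tested. The 12 with the largest decreases had medians of -3.83 in mouse 3334 to -1.33 in mouse 3368. In a fit without the mouse as a block, miR-130a-3p, miR-135a-5p, miR-466f-3p and miR-466h-3p did not pass (edgeR BH-adjusted p = 0.117, 0.0847, 0.0508 and 0.0771). In mouse 3368, 11 of the 12 were still higher and 10 of the 12 lower, but among them miR-126a-3p had a change of only 0.22. These miRNAs were chosen on the same libraries, so their common direction is not a separate result. Within G number 3, which held 1 month 0 and 3 last libraries, all 24 miRNAs differed in the same direction as in the whole comparison. Within G number 6, with 2 and 2 libraries, 23 did, and miR-135a-5p was higher by 1.496 in the last libraries, as the difference of mean log2(CPM + 1). These counts follow from the same choice of miRNAs and compare few libraries, mostly of different mice. They do not show whether the G number has a part in the changes.

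**Figure D3:**
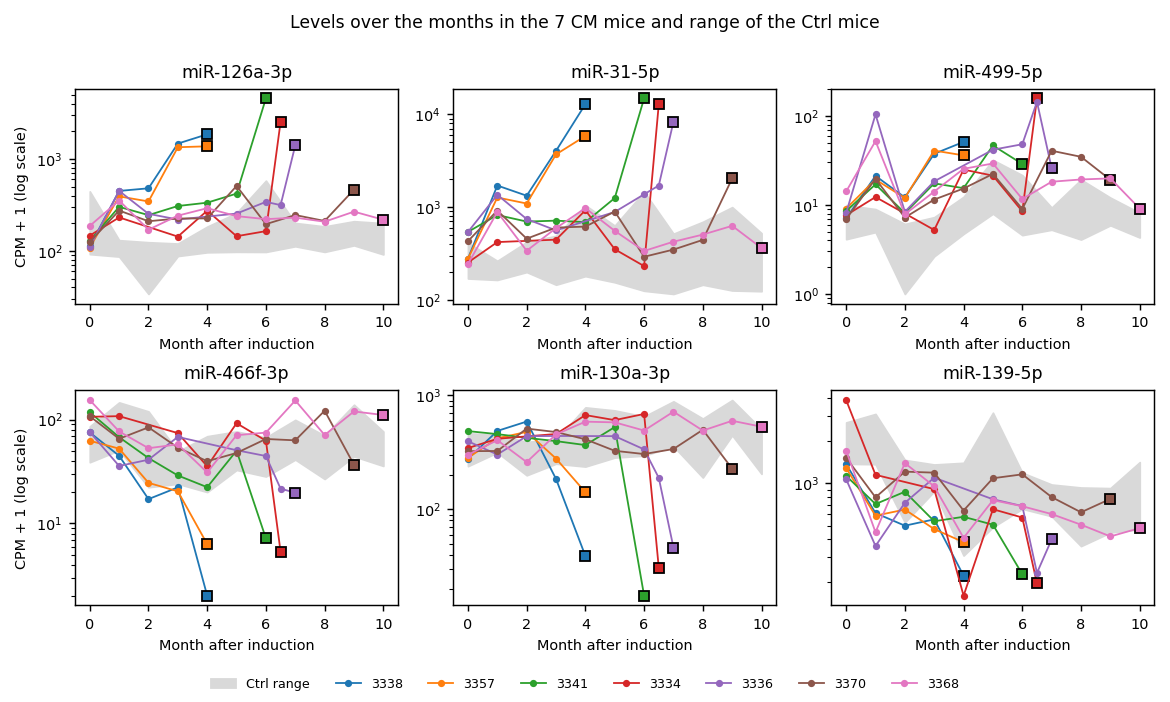
Levels of 6 miRNAs (CPM + 1, log axes) by month in the 7 CM mice, with the last library of each as a black-edged square, and the range over the Ctrl mice in grey. The squares of miR-126a-3p, miR-31-5p and miR-130a-3p lie far from the preceding point in several mice, whereas miR-499-5p and miR-139-5p had moved earlier.

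The library that preceded the last one divided the change into an early and a late step, given as mean differences of log2(CPM + 1). In every mouse the late step covered much less time than the early one (month 6 to 6.5 in mouse 3334), and its length differed among mice. The sizes of the steps are therefore not rates. For miR-126a-3p the step was 1.71 from month 0 to the preceding library, where it was higher in 7 of 7 mice, and 1.54 from there to the last library, where it was higher in 6 of 7. In mouse 3334 it was 163 CPM at month 6 and 2552 CPM in the library titled T6p5. Both of these libraries carry serial numbers that continue the run of Ctrl mouse 3335, so this step rests on labels in doubt. miR-31-5p had steps of 1.68 and 2.20, and miR-340-3p of 0.998 and 1.501. The late step was the larger one by more for miR-31-3p (0.33, then 1.93) and miR-132-3p (0.55, then 1.79). The same held for miR-212-5p (1.17, then 2.19) and miR-132-5p (1.04, then 1.79). In the last interval miR-31-3p, miR-340-3p and miR-132-3p were higher in 7 of 7 mice, and miR-212-5p and miR-132-5p in 6 of 7. The levels of miR-499-5p moved by 2.02 before the preceding library and by -0.10 after it. Among the decreases, miR-130a-3p was last to move: its mean step was 0.15 up to the preceding library and -2.28 in the last interval, when it was lower in 7 of 7 mice. miR-466f-3p (-1.05, then -1.93) and miR-466h-3p (-0.88, then -1.78) were also lower in the last interval in all 7 mice. In contrast, miR-139-5p (-1.74, then -0.44), miR-350-3p (-1.66, then -0.41), miR-1249-3p (-1.74, then -0.59) and miR-181a-5p (-1.96, then -0.17) had most of their decrease by the preceding library. These steps are descriptions, and their differences were not tested.

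Ctrl mice were followed without CM, and the month 6 library of each was used. The last CM libraries came from months 4 to 10, so the time since month 0 differed between the arms. Between month 0 and month 6, 67 of 474 tested miRNAs changed in Ctrl mice (14.1%), 31 higher (6.54%) and 36 lower (7.59%). miR-574-3p fell in Ctrl mice too, from a median of 55.05 to 21.8 CPM in 7 of 7 mice (log2 -1.28; edgeR's quasi-likelihood test, BH-adjusted p = 0.00127), and so did miR-139-5p, from 1858 to 748 CPM (log2 -1.16; edgeR BH-adjusted p = 0.0066). miR-2137 rose in 7 of 7 Ctrl mice, from 37.8 to 63.2 CPM (log2 0.81; edgeR BH-adjusted p = 0.0147). For miR-126a-3p the Ctrl medians were 116.3 and 166 CPM and the log2 change was 0.20 (SE 0.52; edgeR BH-adjusted p = 0.826). The highest Ctrl library at month 6 was that of mouse 3335, at 581 CPM, and without this mouse the change was -0.15 on the log2 scale. miR-31-5p was also highest in this library, at 1460 CPM, against a Ctrl median of 286.

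The difference between the changes of both arms was tested as an interaction over 28 libraries. It passed for 54 of 512 miRNAs (10.5%), with 24 changes higher (4.69%) and 30 lower (5.86%) in CM than in Ctrl mice. With raw library sizes 24 were higher and 49 lower. Without mouse 3368, 149 passed, and with mice 3334 and 3335 both left out, 24 did. Without mouse 3338 the count was 26, without Ctrl mouse 3346 it was 28, without Ctrl mouse 3339 it was 30, and without Ctrl mouse 3350 it was 33. Use of the last Ctrl libraries in place of month 6 gave 26.4% of 512.

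Of the 12 miRNAs with the largest increases, 7 differed from their Ctrl change, and of the 12 with the largest decreases, 6 did. Over all tested miRNAs the shares were 4.69% higher and 5.86% lower. These miRNAs were chosen for their change in the same CM libraries, which raises such counts, so the counts are not a separate result. The CM change exceeded the Ctrl change by 3.28 for miR-126a-3p (SE 0.87; edgeR's quasi-likelihood test, BH-adjusted p = 0.0264), by 3.80 for miR-31-5p (SE 0.88, BH-adjusted p = 0.0214) and by 2.14 for miR-340-3p (SE 0.51, BH-adjusted p = 0.0214). These 3 also passed with mice 3334 and 3335 left out, but miR-126a-3p did not without mouse 3336 (edgeR BH-adjusted p = 0.0532) or mouse 3338 (0.0548). miR-130a-3p, which had a Ctrl change of 0.42, differed by -2.49 (SE 0.68; edgeR BH-adjusted p = 0.0297). This was lost with mice 3334 and 3335 left out (edgeR BH-adjusted p = 0.0765), and also without any 1 of mice 3334, 3336, 3338, 3341, 3339, 3346, 3349 and 3350. For miR-574-3p, miR-139-5p and miR-2137, which moved in both arms, the differences were -1.37, -0.88 and 2.27 and did not pass (edgeR BH-adjusted p = 0.0589, 0.145 and 0.0527).

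The interaction also named 3 miRNAs that were not among those 24. miR-379-5p is a second miRNA of the Dlk1-Dio3 domain. It was 0.386 to 1.98 CPM at month 0 and 2.06 to 98.7 CPM in the last CM libraries (median 28.6), without overlap, against Ctrl medians of 2.29 and 2.34 CPM (difference 4.52, SE 0.80; edgeR's quasi-likelihood test, BH-adjusted p = 0.0111). Of the 4 miRNAs of that domain tested here, 3 were higher (4.69% of all tested miRNAs were), including miR-411-5p (difference 3.14). Only 2 miRNAs of the domain passed the filter on low counts in Ctrl mice alone, and miR-541-5p was not among them. A miRNA that is low elsewhere passes the filter through the libraries in which it is high, so this count is not a separate result. miR-5121 and miR-879-5p had lower changes in CM than in Ctrl mice. Both were higher in 7 of 7 Ctrl mice at month 6, with medians of 24.98 and 202 CPM for miR-5121 and 21.5 and 56.2 CPM for miR-879-5p. Their differences were -2.79 and -2.51, and their CM changes of -0.24 and -1.54, with 4 and 6 of 7 mice lower, did not pass. Of 39 tested miRNAs of the Sfmbt2 list, 10 were lower (5.86% of all tested miRNAs were) and 0 higher. The median difference was -1.19 against -0.11 over all tested miRNAs. Of the 30 tested also in CM mice alone, 9 were lower, and 2 were with mice 3334 and 3335 left out.

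**Figure D4:**
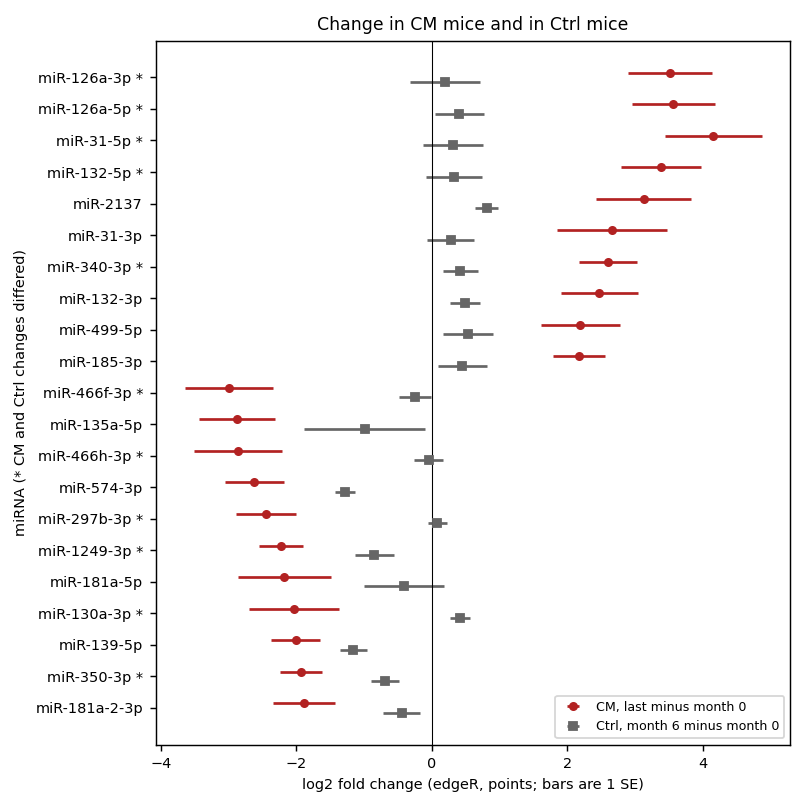
Log2 fold changes (points) with 1 SE (bars) from edgeR for 21 of the 24 miRNAs that were tested in both arms, in CM mice from month 0 to the last library (circles) and in Ctrl mice from month 0 to month 6 (squares). The asterisk marks the 11 whose CM and Ctrl changes differed, among them miR-126a-3p with changes of 3.52 and 0.20.

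Lists of miRNAs named for cell types were read next, since PBMC are a mixture. Counts of called members here and for families and clusters stand against shares of 16.1% higher and 16.8% lower and a median of -0.13 over all tested miRNAs. In such bulk samples fewer cells of a type and less of a miRNA per cell cannot be told apart. Of 4 mature lymphocyte strands 3 fell, with a median log2 change of -0.98. miR-150-5p, a regulator of Myb in mature B and T cells, was 23434 to 54260 CPM at month 0 (median 44790) and 7124 to 46116 CPM in the last libraries (median 23070), lower in 7 of 7 mice with overlapping groups (log2 -1.05, SE 0.26; edgeR's quasi-likelihood test, BH-adjusted p = 0.017). miR-342-3p fell by 1.13 on the log2 scale. It also fell in Ctrl mice, by 1.04 (edgeR BH-adjusted p = 0.00438), and the difference between the arms did not pass for any of the 4 strands (0 at an unadjusted p under 0.05 in edgeR). The summed level of the list was 29799 to 69761 CPM at month 0 and 9572 to 58529 CPM in the last libraries. With raw library sizes 4 of the 4 fell, without mouse 3334, 3336, 3338, 3341 or 3357, 2 did, and with the month 6 library of mouse 3334, 1 did.

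Of the 8 myeloid strands 0 passed the test in edgeR, and 2 had an unadjusted p under 0.05. miR-223-3p, the most specific of them for granulocytes, had medians of 8938 and 4354 CPM and was lower in 7 of 7 mice (log2 -1.24, SE 0.45; edgeR BH-adjusted p = 0.0595), and fell in Ctrl mice by 1.37 (edgeR BH-adjusted p = 0.00101). Of the 7 erythroid strands 2 rose (16.1% of all tested miRNAs did) and 1 fell (16.8% did). miR-451a fell from a median of 36762 to 20725 CPM in 7 of 7 mice, and miR-486b-5p rose from 12515 to 24300 CPM in 5 of 7 mice, with log2 changes of -0.85 (SE 0.20) and 0.83 (SE 0.27). In Ctrl mice miR-486b-5p rose by 1.34 (edgeR BH-adjusted p = 0.0379), and none of the 7 strands passed the test of the difference between the arms in edgeR (2 at an unadjusted p under 0.05). Without any 1 mouse other than 3368, 0 of the 7 rose in edgeR (3 of 7 had an unadjusted p under 0.05 without mouse 3334) and 1 fell. Without mouse 3368, 5 rose, and with raw library sizes 0 rose. Reads of miR-486a and miR-486b cannot be separated with certainty.

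Other lists bear on sources outside the leukocytes. The 2 strands of miR-142a, present in all leukocytes, had log2 changes of -0.50 (5p) and -0.49 (3p) and did not pass with TMM, while with raw library sizes both fell. The miR-143 and miR-145 list, named for vessel wall, ranged from 275 to 752 CPM in sum at month 0 and from 20.2 to 1602 CPM in the last libraries, and 0 of 2 tested strands passed in edgeR (2 at an unadjusted p under 0.05), but 2 of 2 fell without mouse 3368. The summed platelet list was 20.3 to 59.8 CPM and 8.94 to 28.9 CPM, and its 1 tested strand, miR-199b-3p, fell by 1.11 on the log2 scale. The liver list was 631 to 1388 CPM and 822 to 2525 CPM, and the muscle list, which includes miR-499-5p, was 22.4 to 240.5 CPM and 21.6 to 927 CPM, with 1 strand higher in each. The call in the platelet list was lost without mouse 3336, that in the muscle list without mouse 3336 or 3338, and that in the liver list without mouse 3334, 3336, 3338, 3341 or 3357. The part of these levels in the changes of other miRNAs was not tested.

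**Figure D5:**
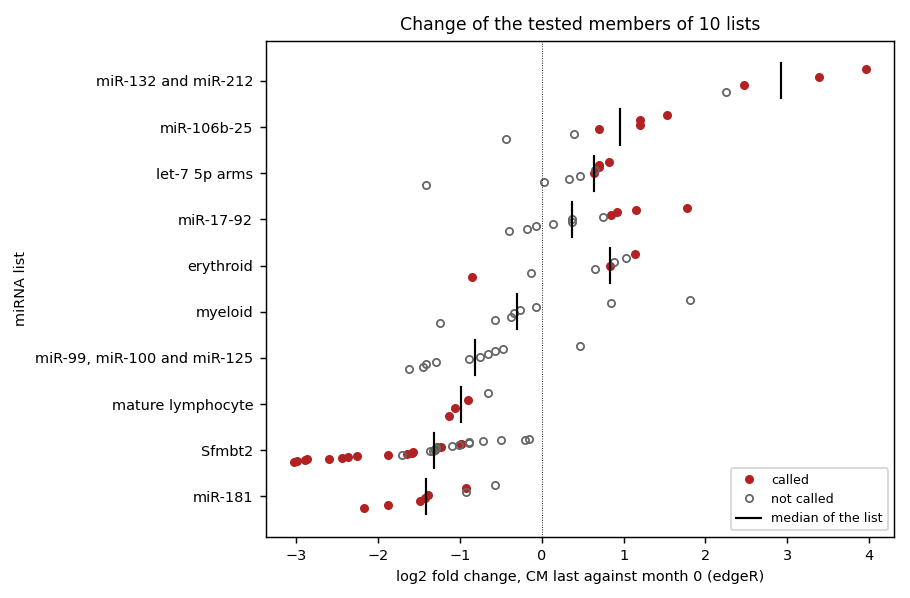
Log2 fold changes of the tested members of 10 lists between the last CM library and month 0, from edgeR, with called members filled, others open and the median of each list as a bar. The members of the Sfmbt2 and miR-181 lists all lie to the left of 0 and those of miR-132 and miR-212 to the right.

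The miR-17-92 cluster on chromosome 14, a target of Myc that promotes proliferation, had 11 strands tested, of which 4 rose (16.1% of all tested miRNAs did) and 0 fell (median log2 change 0.37). The difference from the Ctrl change passed for 0 of the 11 in edgeR (1 at an unadjusted p under 0.05). Its most abundant called strand, miR-20a-5p, was 5453 to 7751 CPM at month 0 (median 7128) and 7417 to 15482 CPM in the last libraries (median 13701), and rose in 7 of 7 mice (log2 0.92, SE 0.25; edgeR's quasi-likelihood test, BH-adjusted p = 0.0231). The related miR-106b-25 cluster had 4 of 6 strands higher (median 0.95), among them miR-106b-3p, from a median of 422 to 907 CPM (log2 1.202, SE 0.22). This strand also rose in Ctrl mice, by 1.18 (edgeR BH-adjusted p = 0.0124), where 2 of the 6 rose, and 0 of the 6 differed between the arms in edgeR (2 at an unadjusted p under 0.05). Without mouse 3334 or 3341 the called strands were 1 of 11 and 2 of 6, and without mouse 3357 they were 2 of 11 and 2 of 6. Without mouse 3336 or 3338 they were 0 of 11 in edgeR (4 at an unadjusted p under 0.05) and 2 of 6. With raw library sizes 3 of 11 were higher in the first cluster, and 3 were higher and 1 lower in the second.

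The third cluster of this family, miR-106a to miR-363 on the X chromosome, went the other way. Of the 6 strands tested there, 4 fell and 0 rose (median log2 change -1.001). miR-20b-5p was 308 to 545 CPM at month 0 (median 456) and 84.1 to 356 CPM in the last libraries (median 181.8), and fell in 7 of 7 mice (log2 -1.21, SE 0.26; edgeR's quasi-likelihood test, BH-adjusted p = 0.01), while its near copy miR-20a-5p with the same seed, AAAGUGC, rose. miR-106a-5p and miR-363-3p fell by 1.17 and 1.06 on the log2 scale, each in 7 of 7 mice. In Ctrl mice miR-20b-5p, miR-106a-5p and miR-363-3p fell too, by 0.87, 0.61 and 0.57 (edgeR BH-adjusted p = 0.0152, 0.033 and 0.0338). The differences of -0.37, -0.60 and -0.52 did not pass (edgeR BH-adjusted p = 0.395, 0.122 and 0.16). The other 2 strands, miR-19b-3p and miR-92a-3p, are also made from the cluster on chromosome 14. Without mouse 3334, 3336, 3338, 3341 or 3357, 3 of the 6 fell. These clusters were grouped by hairpins within 10000 bases of each other.

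A further cluster on the X chromosome, of miR-322, miR-503, miR-542 and miR-450, had 6 of 11 strands lower and 0 higher (median log2 change -0.92). miR-322-5p fell from a median of 580 to 255 CPM and miR-542-3p from 468 to 173 CPM, with log2 changes of -0.98 (SE 0.32) and -1.24 (SE 0.32). In Ctrl mice miR-450b-3p, miR-450a-1-3p and miR-450b-5p fell by 1.37, 1.08 and 0.85 (edgeR BH-adjusted p = 0.00101, 0.0066 and 0.0185), and of the 11 only miR-450a-2-3p differed between the arms, by -1.497 (edgeR BH-adjusted p = 0.0319). Without mouse 3334 or 3357, 3 of the 11 fell, without mouse 3341, 2 did, and without mouse 3336 or 3338, 1 did. In contrast, 3 of 4 strands of the miR-191 and miR-425 cluster on chromosome 9 rose, and 1 did without mouse 3336 or 3338. miR-191-5p was higher in 6 of 7 mice, with medians of 20945 and 33091 CPM, and its change differed from that in Ctrl mice by 1.30 (edgeR's quasi-likelihood test, BH-adjusted p = 0.0259).

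The let-7 family, which is high in differentiated cells and has the seed GAGGUAG, had 4 of 9 5p strands higher and 0 lower (median log2 change 0.64). let-7g-5p had medians of 38339 and 67263 CPM (log2 0.82, SE 0.25; edgeR's quasi-likelihood test, BH-adjusted p = 0.034) and differed from its Ctrl change by 1.21. The counts of let-7a-5p were scattered already at month 0, from 2522 to 17211 CPM, and its log2 change was 0.02 (SE 0.63). Without mouse 3334, 0 of the 9 were called by edgeR (4 at an unadjusted p under 0.05), the same number without mouse 3336, 3338 or 3357, and 1 was without mouse 3341, 2 without mouse 3370 and 1 with raw library sizes. Of the 10 tested strands of the miR-99, miR-100 and miR-125 family, which is high in stem cells, 0 were called by edgeR (3 at an unadjusted p under 0.05), but 6 fell without mouse 3368. miR-99a-5p had medians of 2254 and 1078 CPM with 5 of 7 mice lower. In the list of miR-29, 2 of 7 strands fell, and in that of miR-15 and miR-16, 1 of 12 did, against 16.8% of all tested miRNAs.

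Arms of 1 hairpin mostly moved together. Where both arms were tested, 90 hairpins had the same sign of change in both and 26 did not. In 23 pairs both arms were called, 21 of them in the same direction. The exceptions were miR-30b, with the 5p arm at -1.15 and the 3p arm at 1.32 on the log2 scale, and let-7g, with the 5p arm at 0.82 and the rare 3p arm at -1.41.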

How the data were processed

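Small RNA libraries were made from PBMC RNA with ligated adapters. Per the methods of the study, reads were trimmed with cutadapt, aligned with Bowtie to mm9 and counted for mature miRNAs of miRBase, whereas the labels name GRCm38. The build is therefore not settled, and coordinates given here are those of RefSeq. The authors deposited whole-number counts for 1863 miRNAs made with mirTOP, and a TMM-scaled CPM signal for 1895 miRNAs. All values of that deposited CPM signal above 0 (100%) were whole reads times 1 factor per library, within 0.1 of a read.

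The deposited counts were tested with edgeR 4.0.16 in R 4.3.3 (quasi-likelihood F test, TMM, filterByExpr, two-sided, BH-adjusted p under 0.05, with the mouse as a block). CPM printed as levels were computed from these counts, TMM-scaled over 129 training libraries. Alternatives were DESeq2 1.42.0, limma 3.58.1 on log2(CPM + 1) or log2(CPM + 0.5) of the deposited signal for miRNAs at 1 CPM or more, library sizes without TMM, a filter at a sum of 10 counts, no filter, no block, the G number, other libraries and omission of each mouse. edgeR on whole reads recovered from the signal and omission of both mice 3334 and 3335 were chosen after seeing the data. Pairing rests on the mouse number, taken to mean that both libraries come from 1 animal, which is in doubt for mice 3334 and 3335. Deviations of paired libraries from their group means correlated between -0.18 and 0.14. Each p-value rests on 7 mice per arm.

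Named were miR-126a-3p, miR-126a-5p, for each direction the 12 largest called changes (mean level at least 10 CPM, same direction in at least 6 of 7 mice), the 4 most abundant members of each list, and the 5 largest called interactions per direction. miR-212-3p and further members of clusters, hairpins and lists were named after their values were seen. Members, lists and rules were chosen with earlier results of these data known. On simulated counts for the CM comparison (427 miRNAs tested), 46.1% of changes of 1 and 90% of changes of 2 on the log2 scale were recovered, with 1 false call among 132. The simulation gave every mouse the same change and both its libraries a shared effect of the mouse. Here the changes differed among mice and paired libraries were barely correlated, so these figures may not carry over. Intervals and floors cover counting error only, and no removal of PCR copies is stated. The validation cohort was not used here.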

Additional observations from a re-analysis of the deposited data

Results flagged for a closer look

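Among the 48 groups of 7 libraries examined for the 24 miRNAs (log2(CPM + 1)), 4 had a library whose gap to its nearest neighbour took up more of the range of the group than Dixon's 95% critical value, which chance alone passes in about 1 of 20 groups. At month 0, mouse 3334 was highest for miR-574-3p (149.9 CPM, next 63.7, gap ratio 0.67) and for miR-139-5p (3886 CPM, next 1701, gap ratio 0.638), and mouse 3368 was highest for miR-499-5p (13.2 CPM, next 8.11, gap ratio 0.619). In the last libraries, mouse 3368 was highest for miR-135a-5p (29.5 CPM, next 3.71, gap ratio 0.585).

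The change in CM mice differed from that in Ctrl mice for 16 of the named miRNAs (edgeR's quasi-likelihood test of the interaction, BH-adjusted p between 0.0111 and 0.0421). They were named for their change in the same CM libraries or for this difference itself, so the count is not a separate result. The differences in log2 change were 4.52 for miR-379-5p, 4.11 for miR-541-5p, 3.85 for miR-212-5p, 3.80 for miR-31-5p, 3.28 for miR-126a-3p, 3.12 for miR-126a-5p, 3.05 for miR-132-5p and 2.14 for miR-340-3p. They were -2.83 for miR-466h-3p, -2.79 for miR-5121, -2.77 for miR-466f-3p, -2.55 for miR-297b-3p, -2.51 for miR-879-5p, -2.49 for miR-130a-3p, -1.41 for miR-1249-3p and -1.28 for miR-350-3p. Those of miR-212-5p, miR-126a-3p, miR-466f-3p, miR-5121, miR-879-5p, miR-130a-3p, miR-1249-3p and miR-350-3p did not pass without at least 1 of the mice, and the others passed without any 1 mouse.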

How the results depend on the processing

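Of the tested miRNAs, 33% were called in CM mice. The share became 49.8% of 446 with DESeq2 and its own size factors, 14.9% of 1613 with no filter (241 miRNAs), 13.8% of 458 with the month 6 library of mouse 3334, 0% with the G number and no replicate block, and 14.7% to 43.2% with 1 mouse left out. Without the block it was 39%, and 179 of 453 were called on whole reads recovered from the deposited CPM. In Ctrl mice, 14.1% became 23.4% with DESeq2, 6.55% of 1589 with no filter, and 6.33% to 16.3% with 1 mouse left out, the calls falling from 67 to 30 without mouse 3346 and to 43 without mouse 3339 or mouse 3350. Without the block it was 20.5%. For the difference between the arms, 10.5% became 27.1% with DESeq2, 6.27% of 1723 with no filter, 15% and 14.8% with limma on the deposited CPM at pseudocounts of 1 and 0.5, 18.3% on recovered reads, 26.4% with the last Ctrl library, 4.65% with mice 3334 and 3335 left out, and 5.02% to 28.9% with 1 mouse left out. Without the block it was 14.8%. The difference in log2 total count was -0.26 to -0.07 with 1 mouse left out, and none of these passed. Of the 24 miRNAs, all were called with DESeq2, with raw library sizes and with no filter, 20 without the block, and 0 with the G number. In the fit with the G number, only G numbers 3 and 6 held libraries of both times. The cause was not tested.

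Values that reversed were 0.14 for miR-135a-5p (G number) and, for miR-5121 in CM mice, 0.050 and 0.050 (limma), 0.075 (recovered reads), 1.09 (G number) and -0.51 to 0.014 with 1 mouse left out. In Ctrl mice they were 0.0077 for miR-466h-3p (sum of 10 counts), 0.44 and 0.44 (limma) and 0.52 (recovered reads) for miR-466f-3p. With 1 mouse left out, the Ctrl change was -0.15 to 0.56 for miR-126a-3p, -0.015 to 0.63 for miR-31-5p, -0.17 to 0.087 for miR-466h-3p and -0.29 to 0.056 for miR-379-5p. With 6 residual degrees of freedom in the CM comparison, changes near 1 on the log2 scale are often missed, and miRNAs under 10 CPM rest on few counts.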
